A study of Mus musculus with 2 samples.

Results

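Collagen genes encode the chains of the triple-helical proteins that give tissues their fibres, basement membranes and pericellular filaments. The chains described here are all gene symbols of the deposited feature list made of Col, a chain type number, the letter a and a chain number. Of 32285 genes in the list, 44 symbols had this form, and the 35 with at least 10 unique molecular identifiers (UMIs, each standing for 1 captured RNA molecule) over both libraries are described: 9 fibrillar, 6 basement membrane, 6 beaded filament and 14 other chains. The remaining 9 chains (Col2a1, Col9a1, Col9a2, Col11a1, Col13a1, Col19a1, Col22a1, Col25a1 and Col26a1) had at most 7 UMIs each, and for 3 of them (Col9a1, Col11a1, Col19a1) no UMI was counted. The choice used names and total UMIs alone, so it fixed neither the level of a chain in a cell type nor its difference between libraries.

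The data come from 2 single-cell RNA libraries of the stromal vascular fraction, the cells other than adipocytes that collagenase digestion frees from epididymal white adipose tissue (eWAT) of mice. Both groups were fed a high-fat diet for 10 weeks. One library came from mice with a Camk2d myeloid conditional knockout (Camk2d-CKO), in which the gene of a calcium/calmodulin-dependent kinase is deleted in myeloid cells, and the other from Wild-type mice. The Cre driver, the deleted exons and the number of animals per library are not given in the sources used here, and 1 label field names embryonic hindlimb where all the others name adipose tissue.

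Every collagen is assembled from 3 chains that wind around each other, which requires glycine, the smallest amino acid, as the first residue of each Gly-X-Y triplet. Fibrillar collagens (types I, III and V in most soft tissues) form the load-bearing fibres, type IV forms the sheet-like network of basement membranes around adipocytes and vessels, and type VI forms beaded microfilaments around cells. FACIT collagens such as types XII, XIV and XVI bind to fibril surfaces, and the multiplexins, types XV and XVIII, sit in or next to basement membranes. In adipose tissue the fibroblast-like progenitor cells that line vessels and septa are the best-known source of fibrillar collagen, and obesity is known for adding collagen around adipocytes.

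The glycine rule can be read in the coding sequences, where the length of its longest run sets the fibrillar chains apart from the others. All 44 collagen symbols had a run of at least 20 consecutive triplets that begin with a glycine codon (GGN, where N is any base) in their GENCODE coding sequence on GRCm38, and of 21478 other genes 20 did. The longest unbroken run spanned 216 to 344 triplets in the 9 fibrillar chains (median 338), 39 to 66 in the 6 type IV chains (median 43.5), 37 to 87 in the 6 type VI chains (median 45.0) and 28 to 113 in the 14 other chains (median 47.5). The longest run of every fibrillar chain exceeded that of all other chains, whose types overlap among themselves. The following 54-base coding stretches, read 5′ to 3′ with each GGN codon in capitals, show the first 18 codons of the longest run of a fibrillar chain of each of types I and III and of a type VI chain, and the last part and end of the longest run of a type IV chain, where 2 further GGN codons fall out of step.
Col1a1 (codons 168 to 185): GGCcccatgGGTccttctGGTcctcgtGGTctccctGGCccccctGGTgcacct
Col3a1 (codons 164 to 181): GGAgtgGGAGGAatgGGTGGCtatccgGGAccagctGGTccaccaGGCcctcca
Col6a1 (codons 256 to 273): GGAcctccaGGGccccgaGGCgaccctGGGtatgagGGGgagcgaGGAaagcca
Col4a1 (codons 154 to 171): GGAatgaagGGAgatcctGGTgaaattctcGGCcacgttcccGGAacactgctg

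Gene order also follows type. Col4a1 (chr8:11198423-11312826, minus strand) and Col4a2 (chr8:11312805-11449287, plus strand) are annotated head to head with 22 bases of overlap, Col4a4 and Col4a3 on chromosome 1 start 71 bases apart, and Col4a6 and Col4a5 on chromosome X lie head to head with 1308 bases between them. Col3a1 (chr1:45311538-45349706, plus strand) and Col5a2 (chr1:45374321-45503282, minus strand) face each other tail to tail across 24614 bases. Col6a2 and Col6a1 follow each other on chromosome 10, as do Col6a6, Col6a5 and Col6a4 on chromosome 9. The promoters of the most abundant pair of fibrillar chains are given from RefSeq (GRCm38.p6, plus strand, up to the base before the annotated start), with CCAAT and GGGCGG in capitals for Col1a2 and TATAAA for Col3a1.
Col1a2 (chr6:4505368-4505617): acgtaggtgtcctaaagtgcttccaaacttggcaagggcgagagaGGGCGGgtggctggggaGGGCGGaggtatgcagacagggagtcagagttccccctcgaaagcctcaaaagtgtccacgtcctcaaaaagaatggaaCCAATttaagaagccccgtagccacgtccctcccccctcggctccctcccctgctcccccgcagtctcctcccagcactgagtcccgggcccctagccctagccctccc
Col3a1 (chr1:45311288-45311537): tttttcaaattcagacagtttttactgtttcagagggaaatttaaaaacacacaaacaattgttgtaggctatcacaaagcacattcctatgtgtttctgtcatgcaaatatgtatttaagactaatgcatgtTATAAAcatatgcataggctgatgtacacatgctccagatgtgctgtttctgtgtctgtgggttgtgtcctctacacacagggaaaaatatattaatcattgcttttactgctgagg
These 2 chains have the highest levels in progenitors, and neither promoter held a motif capitalised in the other. Searched on both strands, each motif on its own so that matches may overlap, TATAAA occurred in 4 of the 29 chains with a promoter in the table (12.4% of all 32851 promoters), CCAAT in 10 (33.8%) and GGGCGG in 18 (32.7%). A chain was counted once if any of its promoters matched, while the percentages are over single promoters, so the units differ. A match is a run of letters and says nothing of binding.

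Cells were sorted into gates by marker genes (the progenitor gate by Pdgfra, Pi16, Cd248, Ebf2 and 8 others), each allowing little signal from markers of other lineages, and UMIs were summed per gate and library. A level is the number of UMIs of a chain per 1e6 UMIs of the gate (CPM). A 3′ library counts a transcript once whatever its length, so levels of chains are compared without a length correction. With 1 library per genotype no test was possible: paired values are in the order knockout and wild type, and brackets give 95% intervals that cover counting error only, and a difference between libraries cannot be told apart from one between animals or preparations. The knockout library had 10631 barcodes and a median of 7385 UMIs per barcode, the wild-type library 15555 and 3094, above the 10000 to 13000 cells loaded, and 48 barcode sequences occurred in both. Camk2d was present in both libraries, at 28.4 CPM [26.1 to 30.9] in macrophages of the knockout and 47.8 CPM [45.2 to 50.6] in those of the wild type. It stood at 91.7 CPM against 99.2 CPM in progenitors, and since the deleted exons are not known and reads come from the 3′ end, these values do not check the label.

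The gates held 4174 knockout and 3580 wild-type progenitor cells, 36 and 33 mesothelial cells, 107 and 101 blood endothelial cells, and 3633 and 7287 immune cells. Another 13.6% and 25.9% of cells fell in none of them. Depth followed the libraries, with a median of 10147 and 6218 UMIs per progenitor cell and 7074 and 3637 per immune cell. The gates are ranges of a marker score rather than types: 211 and 1789 progenitor cells and 227 and 1928 immune cells lay near the limit on a score. Within a median progenitor cell, progenitor markers made up 66.2 and 59.1 of every 10000 UMIs, while in a median immune cell they made up 0.652 and 4.94. Progenitor markers in immune cells were thus higher in the wild type, and the source of that RNA was not tested.

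Collagen RNA was highest in progenitors in both libraries. Collagen chains made up 1.24% of progenitor UMIs in the knockout library and 1.68% in the wild type, against 0.40% and 0.577% in mesothelial cells, 0.197% and 0.369% in endothelial cells, and 0.0280% and 0.126% in immune cells. The order of the gates was the same in both libraries, and each gate was higher in the wild type. Over all barcodes the share was 0.654% and 0.658%, where progenitors were 45.4% of knockout and 24.1% of wild-type cells.

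**Figure D1:**
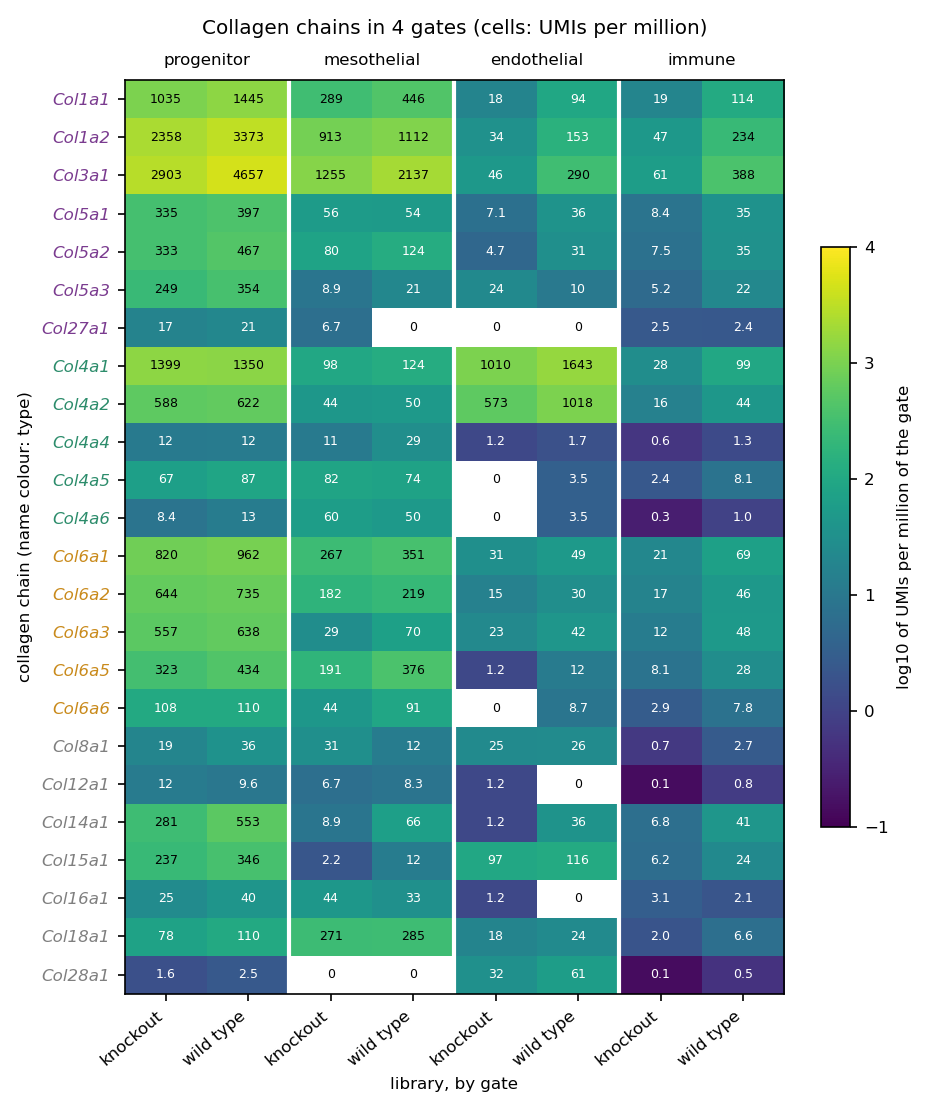
Level of the 24 chains that reached 10 CPM in a gate, in 4 gates of each library, on a logarithmic colour scale (CPM, white for 0 UMIs). Fibrillar and type VI chains are highest in progenitors, Col4a1 and Col4a2 are high in progenitors and endothelial cells, and Col18a1 and Col4a6 are highest in mesothelial cells.

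The leading collagen type differed by cell type in the same way in both libraries. Fibrillar chains took 58.2% of collagen UMIs in knockout progenitors and 63.8% in wild-type progenitors, type IV chains 16.7% and 12.4%, type VI chains 19.8% and 17.2%, and other chains 5.33% and 6.58%. Endothelial collagen was mostly type IV, at 80.6% in the knockout library and 72.4% in the wild type. Mesothelial collagen resembled that of progenitors in its fibrillar share (65.2% and 67.5%) but had a lower type IV share (7.61% and 5.80%) and a higher share of multiplexins (6.83% and 5.16%, against 2.53% in knockout progenitors).

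**Figure D2:**
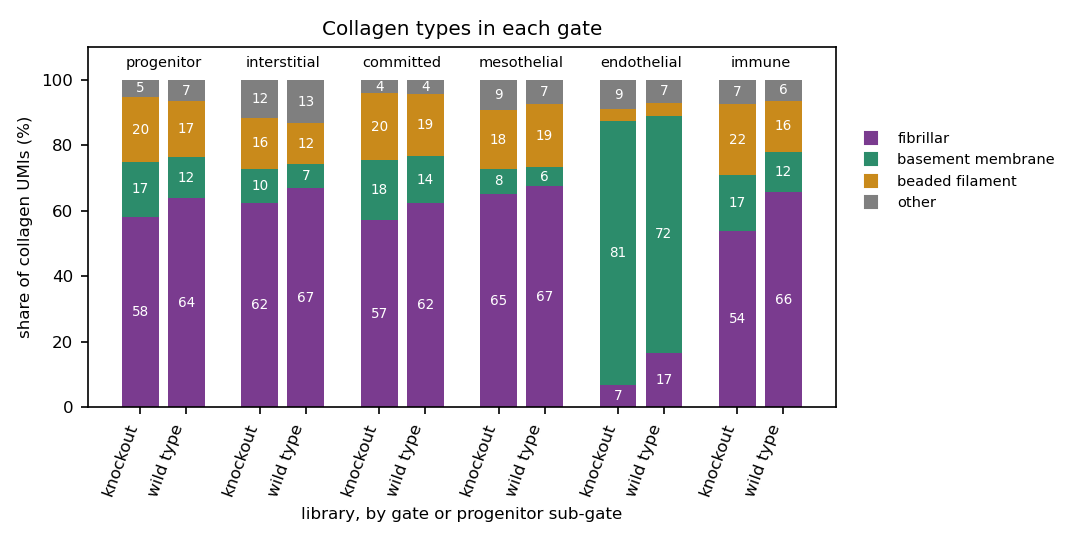
Share of collagen UMIs (percent) taken by fibrillar, type IV, type VI and other chains in progenitors, their interstitial and committed fractions, and mesothelial, endothelial and immune cells of each library. Type IV chains fill 80.6% and 72.4% of the endothelial bars, and fibrillar chains 53.8% or more of every other bar.

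In the whole progenitor gate the counted fibrillar chains were lower in the knockout library, and the type IV chains Col4a1 and Col4a2 were close to equal. Col3a1 (ENSMUSG00000026043), the chain of type III collagen that makes fine reticular fibres, was the most abundant chain at 2903 CPM in the knockout library and 4657 CPM in the wild type (log2 ratio −0.68 [−0.69 to −0.67]). Col1a2 (ENSMUSG00000029661) stood at 2358 and 3373 CPM (−0.52 [−0.53 to −0.50]). Col1a1 (ENSMUSG00000001506), its partner in type I collagen, stood at 1035 and 1445 CPM (−0.48 [−0.50 to −0.46]). Both type I chains were lower by about the same factor, and Col1a1 made up 30.5% and 30.0% of the UMIs of the pair. A type I molecule takes more Col1a1 than Col1a2 chains, and this ratio of captured RNA does not follow that of the protein.

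Type V chains, which start fibrils and limit their width, were lower in the knockout by less or about as much. Col5a1 was at 335 and 397 CPM (−0.25 [−0.28 to −0.21]), Col5a2 at 333 and 467 CPM (−0.49 [−0.53 to −0.45]) and Col5a3 at 249 and 354 CPM (−0.51 [−0.55 to −0.47]). Col27a1, a fibrillar chain known from cartilage, was scarce at 17.2 and 21.0 CPM. Of the other fibrillar chains, Col11a2 had 14 and 10 UMIs and Col24a1 none in progenitors, so no ratio is given. Summed over all fibrillar chains, the level was 7229.7 CPM in the knockout library and 10714.5 CPM in the wild type.

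The main type IV chains did not follow them. Col4a1 and Col4a2, whose products join in the common basement membrane network, were at 1399 and 1350 CPM (0.05 [0.03 to 0.07]) and at 588 and 622 CPM (−0.08 [−0.11 to −0.05]). With their type IV relatives they summed to 2075 and 2086 CPM. The rarer pair on chromosome X was lower in the knockout, Col4a5 at 67.5 and 86.7 CPM (−0.36 [−0.45 to −0.28]) and Col4a6 at 8.41 and 12.8 CPM (−0.61 [−0.84 to −0.38]). Col4a4 was at 11.5 and 11.9 CPM and Col4a3, its partner in kidney and lung basement membranes, at 1.59 and 2.55 CPM. Proportions within the head-to-head pairs of Col4a1 and Col4a5 were similar between libraries. Col4a1 was 70.4% and 68.5% of its pair in progenitors and 63.8% and 61.7% in endothelial cells, and Col4a5 was 88.9% and 87.1% of its pair in progenitors. The progenitor intervals of Col4a1 and Col4a2 did not overlap all the same. In the remaining pair Col4a3 had a lower ratio (−0.68 [−1.22 to −0.14]) than Col4a4 (−0.05 [−0.27 to 0.17]), with overlapping intervals.

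Among type VI chains, the 3 of the common beaded filament were slightly lower in the knockout library. Col6a1 stood at 820.2 and 962 CPM (−0.23 [−0.26 to −0.21]), Col6a2 at 644 and 735 CPM (−0.19 [−0.22 to −0.16]) and Col6a3, whose cleaved end is the adipose peptide endotrophin, at 557 and 638 CPM (−0.20 [−0.23 to −0.17]). Of the chains that can replace Col6a3, Col6a5 was at 323 and 434 CPM (−0.42 [−0.46 to −0.39]), Col6a6 at 108 and 110.4 CPM (−0.04 [−0.11 to 0.04]) and Col6a4 had 17 and 8 UMIs. Type VI RNA in progenitors was thus spread over 5 abundant chains, with Col6a5 above the level of Col5a1 in the wild type.

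The other chains held the largest differences. Col14a1, a FACIT chain on the surface of mature fibrils, was at 281 CPM in the knockout library and 553 CPM in the wild type (−0.98 [−1.01 to −0.94]), and Col8a1, a short-chain network collagen, at 19.1 and 35.6 CPM (−0.90 [−1.04 to −0.75]). Col15a1 and Col18a1, the multiplexins, were at 237 and 346 CPM (−0.54 [−0.59 to −0.50]) and at 77.5 and 110.1 CPM (−0.51 [−0.58 to −0.43]). Col16a1 was lower too, at 25.3 and 39.8 CPM (−0.66 [−0.79 to −0.52]). Chains on the higher side were scarce. Col8a2 stood at 1.69 and 1.07 CPM (0.65 [−0.04 to 1.39]), Col12a1, a FACIT chain of strained tissue, at 11.9 and 9.57 CPM (0.31 [0.08 to 0.55]) and Col23a1, a transmembrane collagen, at 4.03 and 3.40 CPM (0.25 [−0.15 to 0.66]). The remaining members were near the limit of the count: Col28a1 and Col20a1 stayed under 3 CPM, Col7a1, Col17a1 and Col9a3 under 1 CPM, and Col10a1 had 0 and 2 UMIs.

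**Figure D3:**
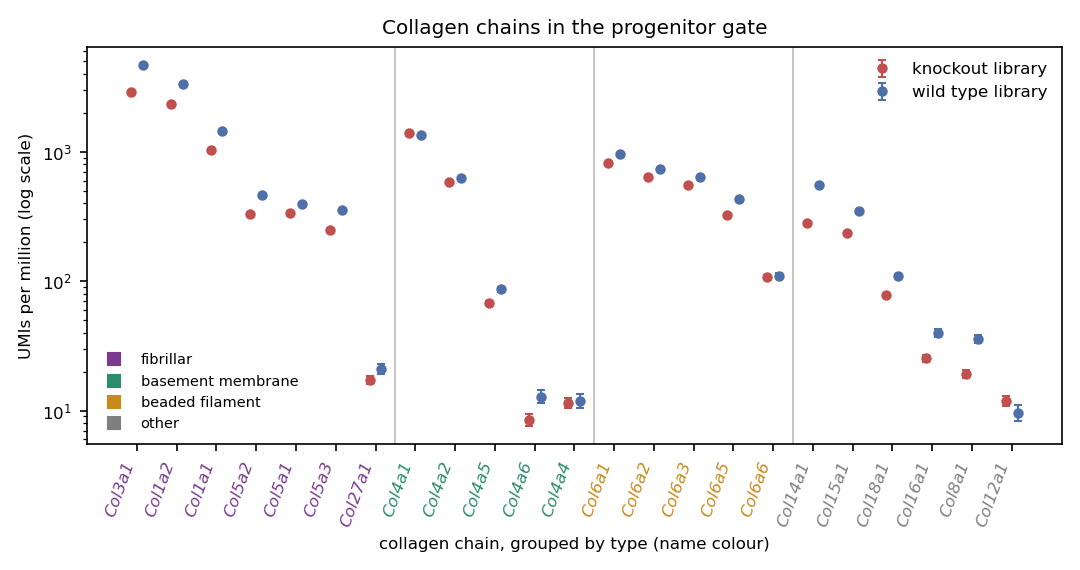
Level of each chain that reached 10 CPM in progenitors of the knockout and the wild-type library, by type, on a logarithmic axis (CPM), with exact Poisson 95% intervals. The wild-type point lies above the knockout point for the abundant fibrillar chains and Col14a1, and the points of Col4a1 and Col4a2 nearly coincide.

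Of the 28 chains with at least 30 UMIs in the higher library, 0 were 2-fold higher and 0 were 2-fold lower in the knockout, where 1.36% and 7.85% of 12913 genes counted the same way were. At a 1.5-fold limit 1 chain was higher (Col8a2) and 7 were lower, or 25.0% of the chains, against 4.48% and 14.8% of all genes. The median log2 ratio was −0.39 over the 28 chains and −0.13 over all genes. Measured from that general offset of −0.13, by median-of-ratios scaling, Col3a1 stood at −0.56, Col14a1 at −0.85 and Col4a1 at 0.18, and the ratios of Col4a2, Col4a4 and Col6a6, nearer to 0 than the offset, change sign with it.

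The markers of other cells in the progenitor gate differed between libraries alongside these ratios. The 9 general immune markers, all detected, summed to 131 and 531 CPM, the 11 macrophage markers to 283 and 1068 CPM, the 10 mural markers to 65.6 and 92.0 CPM and the 5 erythroid markers to 3519.9 and 7178 CPM. Their part in the collagen ratios was not tested. The wild type minus knockout difference in immune cells was 327 CPM for Col3a1, 187 CPM for Col1a2 and 34.7 CPM for Col14a1. That in progenitors was 1754, 1014 and 272 CPM. The immune gate leaves out cells that score high on progenitor markers, so its values do not measure background in the progenitor gate. For Col4a1 the immune difference was 70.2 CPM, and the progenitor difference had the opposite sign, −48.7 CPM. In the 226 knockout and 56 wild-type progenitors without any UMI of another lineage's marker, shallow cells with medians of 2375 and 2396 UMIs, the ratio was −0.07 for Col3a1, 0.48 for Col4a1, 0.21 for Col6a1 and −1.58 for Col14a1. The lower level of Col3a1 was thus much smaller in those few cells, and that of Col14a1 larger.

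Progenitors of adipose tissue include interstitial cells, which carry Dpp4, Pi16 and Cd55 and lie in the septa, and committed cells closer to the adipocytes. The knockout library had 799 interstitial cells (19.1% of the gate) and 2450 committed cells (58.7%), and the wild type 1343 (37.5%) and 1505 (42.0%). Collagen RNA differed between these fractions in both libraries, with 0.786% and 1.00% of interstitial UMIs and 1.46% and 2.21% of committed UMIs. Of the counted chains, 13 of 27 in the knockout library and 18 of 26 in the wild type were at least 2-fold lower in interstitial than in committed cells, against 7.16% and 5.91% of all genes. Only Col14a1 was at least 2-fold higher, against 3.76% and 4.61% of all genes.

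Col14a1 marked the interstitial fraction at 742 and 1104 CPM, against 120.1 and 153 CPM in committed cells. Col15a1 was the reverse, at 43.2 and 68.3 CPM against 334 and 573 CPM. Of the UMIs of this pair, Col14a1 made up 94.5% and 94.2% in interstitial cells and 26.5% and 21.0% in committed cells. Col6a5 (99.3 and 86.1 CPM against 403 and 731 CPM) and Col4a1 (549.7 and 447 CPM against 1809.9 and 2067 CPM) were also lower in interstitial cells. Col3a1 differed less, with 1832 and 2489.8 CPM against 3409 and 6286 CPM. Col16a1 hardly separated the fractions, at 28.0 and 47.9 CPM against 24.3 and 36.4 CPM. The replacement chain Col6a5 was the smaller part of Col6a3 plus Col6a5 in interstitial cells, where Col6a3 held 73.8% and 75.4%, and nearer equality in committed cells at 63.2% and 56.1%.

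Since the fractions differ in size between libraries, the knockout ratio was also taken within each. Col3a1 was lower in the knockout in all 3 fractions, by log2 ratios of −0.44 in interstitial cells, −0.88 in committed cells and −1.15 in cells that met neither rule. Col1a1 (−0.38, −0.66 and −0.76) and Col1a2 (−0.56, −0.60 and −0.77) had the same sign in each. The Col14a1 ratio shrank to −0.57 and −0.35 and was 0.06 in the last fraction, and with the 3 fractions weighted equally it was −0.42 instead of −0.98. Col4a1 went both ways, at 0.30 in interstitial cells and −0.19 and −0.62 in the others, and so did Col4a2 (0.14, −0.31 and −0.83) and Col6a5 (0.20, −0.86 and −0.66). With equal weights Col4a1 came to −0.28, so its near equality in the whole gate depends on the fractions' sizes.

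Of 23 chains counted in all 3 fractions, 14 were lower in the knockout in each, 9 of them with every interval below 0. Another 8 differed in sign, and only Col12a1 was higher in each (0.38, 0.24 and 1.04). The share of all genes lower in each fraction was not counted. Their median log2 ratios were below 0 too, at −0.11 in interstitial, −0.11 in committed and −0.10 in remaining cells, against −0.17, −0.58 and −0.67 over the chains counted in each. Past 2-fold were 0 of 23 chains in interstitial cells in either direction (1.29% higher and 6.40% lower among all genes). In committed cells 3 of 27 chains were lower (Col4a3, Col8a1 and Col28a1) and 0 higher, against 5.37% and 1.52% of all genes. In the remaining fraction 4 of 24 were lower (Col3a1, Col5a3, Col4a4 and Col15a1) and 2 higher (Col12a1 and Col23a1), against 4.77% and 1.51%.

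Progenitors with the inflammatory genes Cxcl1, Ptx3 and Ccl2 among others were 58.1% of the gate in the knockout library and 21.9% in the wild type, so the ratio was also taken inside and outside them. Col3a1 was lower in the knockout in both (−0.64 in inflamed cells and −0.79 in the rest), as were Col1a2 (−0.57 and −0.62) and Col14a1 (−0.89 and −0.82). Col4a1 was near equal in both, at 1477 and 1481 CPM in inflamed cells and 1276 and 1318 CPM in the rest. Of 27 chains counted in inflamed cells 1 was 2-fold higher (Col8a2, on scarce UMIs) and 1 lower (Col8a1, at 16.2 and 43.5 CPM), against 2.20% and 6.08% of all genes, and 0 of 27 chains passed in either direction in the rest, against 1.17% and 6.81%.

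**Figure D4:**
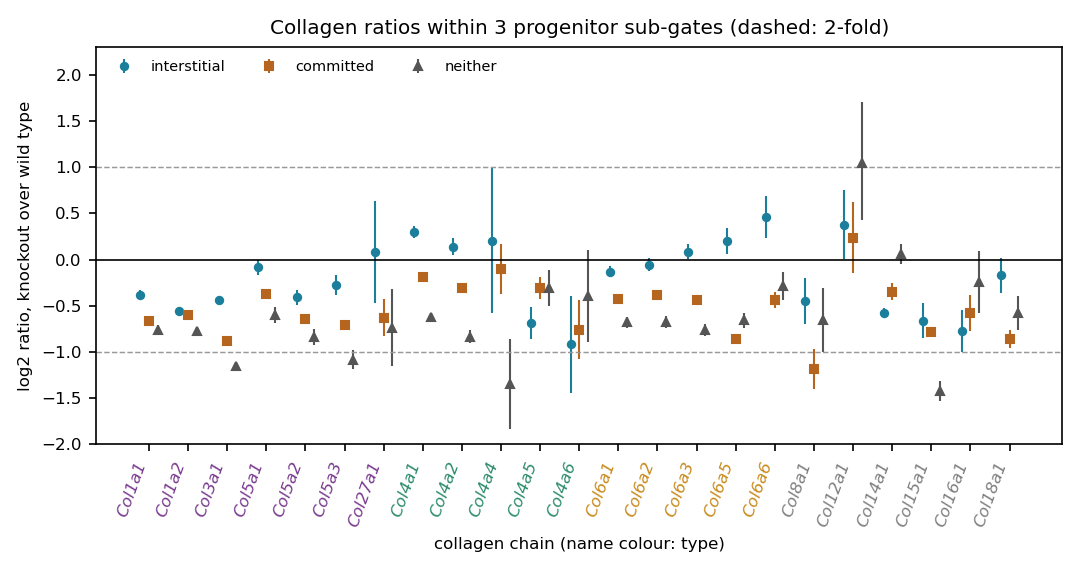
Log2 ratio of knockout to wild-type level of 23 chains in interstitial, committed and remaining progenitors, with exact conditional 95% intervals, dashed lines at 2-fold and names coloured by type (purple fibrillar, green type IV, ochre type VI, grey other). Chains of types I, III and V lie below 0 in all 3 fractions (Col27a1 does in committed and remaining cells), Col4a1 and Col6a5 lie above 0 in interstitial cells alone, and Col12a1 lies above 0 in all 3.

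The share of collagen varied among the cells of the gate. Ranked by their own collagen share, the 417 knockout and 358 wild-type progenitors with the highest shares, 1 in 10 cells, held 30.2% and 34.8% of the gate's collagen UMIs, and the rest of the gate held 69.8% and 65.2%. Their collagen was 3.28% and 4.49% of their UMIs, reaching 7.89% and 9.89% in single cells, against 0.979% and 1.26% in the rest. The cells were picked by collagen, so these values describe the spread and support nothing else. Most were committed cells (82.0% and 70.4%), and 5.04% and 5.31% were interstitial.

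The excess was uneven among chains. Col3a1 was 4.99 and 4.98 times as high in those cells as in the rest, Col4a1 3.67 and 4.28 times, and Col1a1 3.64 and 4.12 times. Col6a5 was nearly level (1.03 and 1.17 times), as was Col4a5 (1.37 and 1.13 times), and Col14a1 was lower there (0.802 and 0.430 times). Of genes that serve collagen, the chaperone Serpinh1 was 2.21 and 1.99 times as high, the collagen-binding glycoprotein Sparc 3.34 and 3.08 times, and the proteoglycan Dcn was not (0.920 and 0.975 times). Leaving those cells out of both libraries, the knockout ratio was −0.62 for Col3a1, 0.18 for Col4a1 and −1.05 for Col14a1.

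Genes that make, bind or sense collagen were set beside the chains in progenitors, from 7 lists with 87 genes, of which 76 were counted. At 2-fold, 1 was higher and 5 were lower in the knockout library, near the 1.36% and 7.85% over all genes, and their median log2 ratio was −0.13, the same as over all genes. The enzymes that hydroxylate and glycosylate new chains (14 counted) and the folding and export factors (13 counted) had none past 2-fold in either direction. Ppib, a prolyl isomerase of the hydroxylation complex and the most abundant gene of the first list, was at 422 and 412 CPM, and the lysyl hydroxylase Plod1 at 51.8 and 81.0 CPM (−0.65 [−0.74 to −0.55]). Serpinh1, the collagen chaperone, was at 529 and 583 CPM (−0.14 [−0.17 to −0.11]). The median ratio was −0.165 over the first list and −0.139 over the second.

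Outside the cell the differences went both ways. Among the 7 counted genes of propeptide cleavage, 0 were 2-fold higher and 1 lower, Adamts14 at 3.49 and 7.38 CPM (−1.08 [−1.41 to −0.75]). Bmp1, which removes the C-terminal propeptide of fibrillar chains, was at 118 and 218 CPM (−0.89 [−0.95 to −0.83]), Adamts3 at 1.88 and 0.984 CPM, and the enhancer Pcolce2 at 429.7 and 507 CPM. The Pcolce2 ratio differed in sign by fraction, at −0.07 in interstitial cells, 0.25 in committed cells and 0.55 in the remaining cells. The cross-linking enzyme Lox was on the other side, at 249.7 and 132 CPM (0.92 [0.86 to 0.98]), and above 0 in each fraction (0.70, 0.69 and 0.53). Loxl4 was likewise at 9.38 and 5.46 CPM, while Loxl1 was at 429 and 447 CPM (−0.01, 0.10 and 0.06 within the fractions), and 0 of the 6 cross-linking genes passed 2-fold in either direction.

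Of 13 counted fibril-binding genes, 1 was 2-fold higher and 0 lower, against 1.36% and 7.85% of all genes. Thbs1, the thrombospondin that activates latent TGF-beta, stood at 432 and 175 CPM (1.31 [1.26 to 1.36]), with ratios of 0.31, 1.39 and 0.67 in the 3 fractions. Lum, which spaces fibrils, was at 791 and 1349 CPM (−0.77 [−0.79 to −0.75]), Fn1 at 1812 and 2919 CPM (−0.69 [−0.70 to −0.67], but −0.44, −0.21 and −0.03 within the 3 fractions) and Sparc at 2894 and 4465 CPM (−0.63 [−0.64 to −0.61]). Dcn, the most abundant of all at 15496 and 12273 CPM, was higher in the knockout (0.34 [0.33 to 0.34]). Fibril-binding genes did not share a direction.

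The 10 counted basement membrane partners had 0 genes past 2-fold either way, with the linker Nid1 at 1439 and 1319.5 CPM (0.13 [0.11 to 0.15]) and Lamb2 at 166 and 212 CPM (−0.35 [−0.41 to −0.30]). Among 13 counted receptors and uptake genes 0 were higher and 4 lower (1.36% and 7.85% of all genes): Lair1 at 1.47 and 7.92 CPM, Mrc1 at 12.3 and 52.3 CPM, Itga2 at 1.69 and 5.73 CPM, and Adgrg6 at 0.513 and 1.43 CPM. Mrc1 is also in the macrophage marker list, and Lair1 is an inhibitory receptor of immune cells. They stood beside the higher immune marker sums of the wild-type gate given above. The fibroblast collagen receptor Ddr2 was at 563 and 557 CPM, with ratios of −0.04, 0.40 and 0.55 within the fractions.

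Mesothelial cells, the lining of the fat pad, carried a collagen set of their own. The 36 and 33 cells gave 1801 and 1396 collagen UMIs, so intervals are wide. Col3a1 led at 1255 and 2137 CPM, followed by Col1a2 at 913 and 1112 CPM and Col1a1 at 289 and 446 CPM. Their progenitor markers summed to 1046 and 1319 CPM, and the general immune markers to 91.1 and 459 CPM, whose part in these levels was not tested.

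Col18a1, the multiplexin whose cleaved end is endostatin, was at 271 and 285 CPM in mesothelial cells, or 349.6% and 259% of its level in progenitors. Its sister Col15a1 was all but missing with 1 and 3 UMIs, so it made up 0.813% [0.0206 to 4.45] and 4.17% [0.868 to 11.7] of the UMIs of the multiplexin pair, against 75.4% and 75.9% in progenitors. Col4a6 was at 60.0 and 49.6 CPM, and Col4a5 made up 57.8% [44.8 to 70.1] and 60.0% [40.6 to 77.3] of its pair, below the 88.9% and 87.1% of progenitors. Col4a1, by contrast, was at 97.8 and 124 CPM, or 6.99% and 9.19% of its level in progenitors.

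A further difference lay in type VI. Col6a5 was at 191 and 376 CPM and Col6a3 at 28.9 and 70.3 CPM, so Col6a3 held 13.1% [7.18 to 21.4] and 15.7% [9.45 to 24.0] of the pair, against 63.3% and 59.5% in progenitors. The chain that replaces Col6a3 thus prevailed in mesothelial cells of both libraries. Against progenitors of the same library, 6 of 28 chains in the knockout and 6 of 26 in the wild type were at least 2-fold higher, and 15 and 14 at least 2-fold lower. Among all genes 24.1% and 24.9% were higher, and 10.5% and 11.0% lower. A count of 0 was read as 3 UMIs here, for chains and for all genes. By that rule alone Col20a1 and Col28a1 were counted as higher in the knockout, and Col23a1 and Col28a1 in the wild type. On detected UMIs Col4a3, Col4a6 and Col18a1 were higher in both libraries, Col8a2 in the knockout and Col4a4 in the wild type. Col4a3, Col4a4 and Col8a2 had at most 7 mesothelial UMIs in a library.

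Between libraries, 0 of the 10 counted mesothelial chains were 2-fold higher or lower, where 4.26% and 1.60% of 2185 genes were. At 1.5-fold 4 were lower (5.77% of all genes) and 0 higher (14.8%). Col6a5 came closest (−0.98 [−1.42 to −0.54]), then Col3a1 (−0.77 [−0.94 to −0.59]) and Col5a2, at 80.0 and 124 CPM (−0.63 [−1.37 to 0.12]). Col4a5 was at 82.2 and 74.4 CPM (0.14 [−0.71 to 1.04]) and Col18a1 differed by −0.07 [−0.51 to 0.37]. The median ratio was −0.37 over the chains and 0.07 over all genes.

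Blood endothelial cells make the basement membrane under the vessel wall, and type IV chains dominated their collagen. Col4a1 was at 1010.3 CPM in the knockout library and 1643 CPM in the wild type (−0.70 [−0.84 to −0.57]). Col4a2 was at 573 and 1018 CPM (−0.83 [−1.0 to −0.65]). Both were thus lower in the knockout, while they were near equal in progenitors, and whether the 2 gates differ in that respect could not be tested. Thinned to 2000 UMIs per cell, 71.6% and 78.4% of endothelial cells had a Col4a1 UMI (80.4% and 82.2% before thinning, which left out 26 and 13 cells), against 3.96% and 19.2% of immune cells (median depths before thinning 5057 and 4055 UMIs, and 7074 and 3637 UMIs).

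Of the 35 chains, 6 had an endothelial interval above the immune interval in both libraries: Col4a1, Col4a2, Col8a1, Col15a1, Col18a1 and Col28a1. The share of all genes that met this rule was not counted, so the number is not set against a background. Col15a1 was at 97.3 and 116 CPM, Col8a1 at 24.9 and 26.0 CPM and Col18a1 at 17.8 and 24.3 CPM. Col28a1, a chain with a von Willebrand factor-like domain, was at 32.1 [21.1 to 46.6] and 60.8 CPM [42.3 to 84.5] in endothelial cells and at 1.64 and 2.50 CPM in progenitors, on 27 and 35 endothelial UMIs. Against progenitors of the same library, 4 of 28 chains in the knockout and 1 of 26 in the wild type were at least 2-fold higher (22.5% and 19.0% of all genes), and 20 and 19 at least 2-fold lower (15.4% and 14.9%). A count of 0 was read as 3 UMIs here, for chains and for all genes. Col4a3, Col8a2 and Col20a1 had 0 endothelial UMIs in the knockout and were counted as higher by that rule alone. Col28a1 was the only chain higher on detected UMIs, in both libraries. Col28a1 is known from peripheral nerves, around glial cells. The 4 Schwann cell markers summed to 0 and 1.74 CPM in this gate, with 3 of them at 0 in both libraries. Which cells the Col28a1 RNA in this gate came from was not tested.

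Type I and III chains in endothelial cells were not above the immune level in either library, with overlapping intervals in the knockout. Their source was not tested. Col3a1 was at 46.3 and 290.0 CPM against 61.0 and 388 CPM in immune cells, Col1a2 at 34.4 and 153 CPM against 46.5 and 234 CPM, and Col1a1 at 17.8 and 93.8 CPM against 18.9 and 114 CPM. Col5a3 was above the immune level in the knockout (23.7 against 5.24 CPM) and below it in the wild type (10.4 against 21.9 CPM). Col1a1, Col1a2 and Col3a1 were the only 3 of 7 counted endothelial chains 2-fold lower in the knockout, with 0 higher, where 1.52% of 4147 genes were lower and 2.29% higher. The 12 progenitor markers in the gate, all detected, summed to 144 and 412 CPM, and the 10 mural markers to 271 and 221 CPM. The 9 general immune markers summed to 515 and 601 CPM and the 11 macrophage markers to 1816 and 1032 CPM. The 4 adipocyte markers summed to 80.7 and 26 CPM and the 5 erythroid markers to 13632.5 and 8356 CPM. Their part in the endothelial collagen ratios, those of Col4a1 and Col4a2 included, was not tested. Col28a1 (−0.92 [−1.70 to −0.16]) and Col15a1 (−0.26 [−0.74 to 0.23]) were the other chains counted beside the type IV pair. At 1.5-fold 6 chains were lower (6.46% of all genes) and 0 higher (8.32%).

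Immune cells are not known as a source of fibrillar collagen, and the source of the collagen RNA counted in them was not tested. Of 24 counted chains 21 were at least 2-fold lower in the knockout library and 0 higher, where 6.60% and 2.96% of 13327 genes were. Col3a1 was at 61.0 and 388 CPM, Col4a1 at 28.5 and 98.7 CPM, and Col6a1 at 21.0 and 69.5 CPM. In cells thinned to 2000 UMIs, 9.46% of knockout and 49.9% of wild-type immune cells had a Col3a1 UMI (30.4% and 79.4% before thinning, which left out 302 and 1693 cells), against 87.5% and 94.2% of progenitors (95.1% and 98% before). Close to a majority of wild-type immune cells thus carried Col3a1 RNA at equal depth.

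All 28 chains counted in the knockout and all 26 in the wild type were at least 2-fold lower in immune cells than in progenitors (23.4% and 20.9% of all genes; 22.7% and 19.0% were higher). The immune level as a percentage of the progenitor level of the same library had a median of 2.61% over 28 chains in the knockout (quartiles 2.24 and 5.33) and 7.50% over 26 chains in the wild type (quartiles 6.97 and 8.64). Most wild-type chains thus stood between the lowest value, 5.35%, and the upper quartile, 8.64%. The full range was 1.22% to 32.0% in the knockout and 5.35% to 22.4% in the wild type. The highest knockout value was that of Col20a1, on 10 immune UMIs. In T cells alone, which are not known to make collagen, the medians were 1.69% and 5.90%, and in B cells 2.72% and 4.65%.

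**Figure D5:**
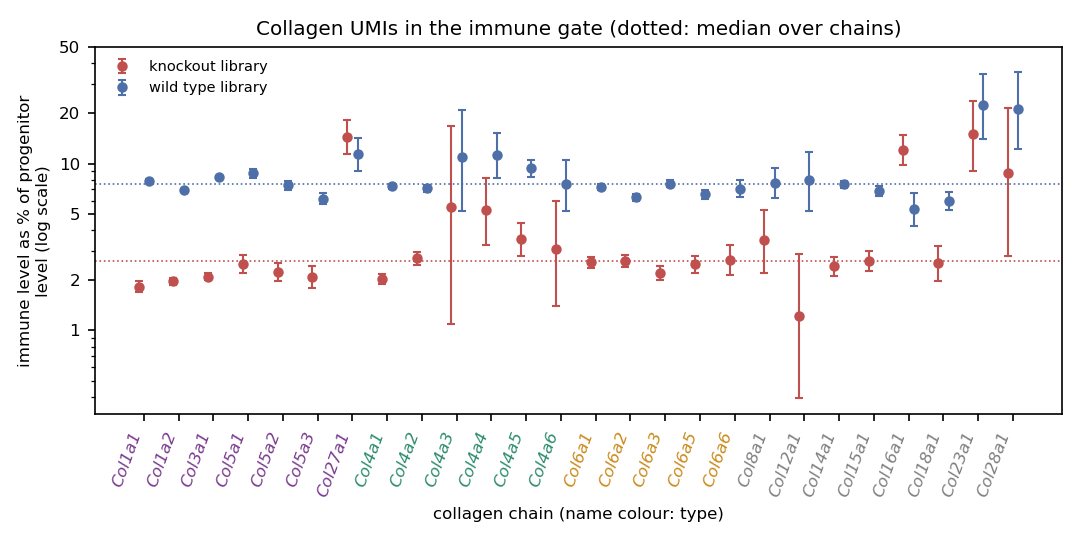
Immune level of each chain as a percentage of its progenitor level in the same library, on a logarithmic axis with 95% intervals for counting error, with a dotted line at each library's median (2.61% and 7.50%). Most wild-type points lie near their line, and Col16a1, Col27a1 and Col23a1 lie above the knockout line.

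A few chains lay off those medians. Col16a1, chosen after its values were seen, was at 3.07 CPM in knockout immune cells and 2.13 CPM in wild-type ones (0.53 [0.10 to 0.96]), or 12.1% and 5.35% of the progenitor level, while 21 of the counted chains were at least 2-fold lower in the knockout. In macrophages it was at 4.64 and 2.09 CPM (91 and 52 UMIs, 1.15 [0.65 to 1.68]), and in T cells it had 1 and 3 UMIs and in B cells 0 and 2 UMIs. Thinned shares were small, 0.905% [0.468 to 1.58] of knockout and 0.568% [0.331 to 0.908] of wild-type macrophages, which are 12 and 17 cells. Col27a1 was equal in both libraries, at 2.49 and 2.41 CPM (0.05 [−0.39 to 0.48]), and Col23a1 was at 0.608 and 0.760 CPM. Col11a2, at 0.666 and 0.608 CPM, was above its progenitor level of 0.342 and 0.447 CPM, with overlapping intervals.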

How the data were processed

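Each library is a 10x Genomics 3′ single-cell library, and the values the authors deposited are raw UMI counts per gene and cell barcode. Cell Ranger 5.0.0, Seurat 4.1.1 and the build mm10 are named in the submitters' processing notes; the order and role of the steps are not given in the sources used here. The counts were used as deposited.

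Cells with at least 500 UMIs, 200 genes and at most 20% mitochondrial UMIs were kept, and cells with a Scrublet score of 0.25 or more (Scanpy 1.11.5, expected rate 0.08) were removed: 435 of 9635 in the knockout library and 478 of 15332 in the wild type. A gate took cells whose own marker list reached 0.4 of its reference (the median share of that list's UMIs in cells with many of its markers), with at least 3 markers detected and every other lineage under 0.4. Cells scoring 0.3 to 0.5 count as near the limit. Interstitial cells reached 0.4 on their list. Committed cells were under 0.2 on it and reached 0.4 on their own. These limits were set after viewing the score distributions.

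UMIs were summed per gate and library (NumPy 2.4.6, SciPy 1.17.1). Intervals are exact at 95% (Poisson for levels, conditional for ratios, Clopper-Pearson for shares). Duplicate molecules were collapsed by UMI, and the intervals cover counting error only. No p-value is given, since each genotype is 1 library. Ratios need at least 30 UMIs in the higher library. Values are in full for chains at 50 CPM or more in a gate and the 3 largest ratios in each direction; from each pathway list, the most abundant gene and the largest ratios. Chains and lists were chosen with earlier results of these data known. The ratio and fold calculations were tested on simulated data.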

Additional observations from a re-analysis of the deposited data

How the results depend on the processing

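No paired analysis was possible because each genotype is 1 library. In progenitors, 0 chains passed 2-fold in either direction. The number lower in the knockout was 1 in cells without a UMI of another lineage's marker, 1 with other lineages under 0.25 of their reference and 1 in inflamed cells, 7 at 1.5-fold, 3 in committed cells and 4 in cells of neither fraction. The number higher was 1 at 1.5-fold, 1 in inflamed cells and 2 in cells of neither fraction. The fibrillar share, 58.2% (knockout) and 63.8% (wild type), was 53.9% and 56.8% without other markers' UMIs, 57.0% and 62.7% as a mean over cells, 62.4% and 67.0% in interstitial cells, 57.0% and 62.4% in committed cells and 59.6% and 64.0% in the remaining fraction. In the knockout it was also 59.1% with fractions weighted equally, 58.7% in inflamed and 57.3% in other cells. Of 10 mesothelial chains, 0 passed 2-fold; the number lower was 1 under the stricter cell filter, 1 as a mean over cells, 4 at 1.5-fold, 3 with a minimum of 10 UMIs and 7 with none, and 1 was higher under each of those last settings. In endothelial cells, 3 were lower and 0 higher; 6 were lower at 1.5-fold, 6 lower and 1 higher with at least 10 UMIs, and 11 lower and 1 higher with no minimum. The gate without other lineages' UMIs left too few mesothelial and endothelial cells for a value. Counts under changed UMI minimums, changed cell filters and means over cells are given without the share of all genes under that setting. They describe how the count moves with the setting and are not a result about the chains. The causes were not tested.

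Under these alternatives the progenitor log2 ratio ran from −1.15 to −0.07 for Col3a1, from −1.58 to 0.06 for Col14a1 and from −0.62 to 0.48 for Col4a1. Col1a1 (−0.76 to −0.17), Col1a2 (−0.77 to −0.16) and Col5a3 (−1.08 to −0.28) stayed below 0. The type V chains Col5a1 (−0.60 to 0.39) and Col5a2 (−0.84 to 0.007) changed sign, so the lower fibrillar level did not hold for every chain under every setting. Of single-chain ratios, 151 alternative values in progenitors stayed within the counting interval and 138 moved beyond it, against 96 and 4 in mesothelial, 65 and 5 in endothelial and 40 and 15 in immune cells. The limit of 0.25 on other lineages and the split by inflammatory genes were chosen after seeing the data. Low depth limits the mesothelial and endothelial gates, where chains under 30 UMIs have no ratio.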
